A study of Caenorhabditis elegans with 27 samples.

Results

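Non-polysomal mRNA was compared between worms treated with gld-4(RNAi) and worms treated with control RNAi. The comparison rests on the 6 libraries, of 27 in the series, whose labels name the non-polysomal fraction (NP) of control or gld-4(RNAi) worms, 3 in each group, and it covers every gene measured rather than a chosen set. The worms were whole young adults of the N2 strain of Caenorhabditis elegans, fed bacteria that carried either the empty vector pL4440 (control) or a gld-4 fragment, so no allele or transgene was involved and both groups shared the strain, the stage and the feeding. Extracts were spun through sucrose gradients, and RNA of the fractions lighter than polysomes was pooled as NP and that of the polysome fractions as P, beside unfractionated extract (input). RNA was then enriched for poly(A) tails and sequenced. RNAi by feeding acts in the whole animal, and NP of a whole worm mixes germ line and soma, so fewer cells of a type and less RNA per cell cannot be told apart.

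GLD-4 is a cytoplasmic poly(A) polymerase. It extends the tails of mRNAs outside the nucleus. GLD-2 is the other well studied enzyme of this kind in the worm germ line. An mRNA found in NP is free, held in a repressed particle, or bound by too few ribosomes to sediment with polysomes, and its level there follows both its total amount and the share of it that is not translated. The question was which mRNAs of this pool differ when GLD-4 is depleted.

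The 6 NP libraries held 12897230 to 16699799 counts. Levels are given as normalized counts, which are raw counts scaled by TMM (trimmed mean of M-values) to the average NP library, in the order of replicates 1, 2 and 3. Because every library was scaled to its own bulk, all changes are relative to the other mRNAs, and a change shared by all of NP was not measured. Tests were run on the 7418 genes with a mean of at least 100 normalized counts in input, by edgeR's quasi-likelihood test with Benjamini-Hochberg adjustment, and nothing in the sources used here says that replicates were separate cultures, so p-values measure the spread between these libraries. The replicate 1 libraries stood apart. The log counts of gld-4(RNAi) replicate 1 correlated with those of replicates 2 and 3 at 0.902 at most, against 0.996 between the latter, and control replicate 1 at 0.959 at most, against 0.995. Counts are therefore also given without the replicate 1 libraries.

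gld-4 mRNA itself was strongly depleted in NP. The control libraries held 2479, 2728 and 3590 normalized counts of gld-4 and the gld-4(RNAi) libraries 203, 385 and 193. Every knockdown library lay far below every control library, on average 11.3-fold (log2 fold change -3.49 ± 0.32 SE, edgeR adjusted p = 0.0041, n = 3 and 3). The targeted gene thus went with the label of every library. gld-2 had 611, 804 and 866 against 679, 705 and 600, values that overlap (-0.20 ± 0.15, edgeR adjusted p = 0.34). ZK858.2 is the gene next to gld-4 on its chromosome in RefSeq. It had 662, 808 and 799 normalized counts in control and 578, 215 and 181 in gld-4(RNAi). Its groups did not overlap but replicate 1 differed little from control, and the comparison missed the threshold (-1.23 ± 0.45, edgeR adjusted p = 0.098). Without gld-4(RNAi) replicate 1 ZK858.2 was lower at -1.94 (edgeR adjusted p = 0.0025), and it also passed with DESeq2.

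Of the 7418 genes, 42 were reduced (0.566% of those tested) and 65 were increased (0.876%) by edgeR, with the adjusted p limited to 0.05 and the change to 2-fold or more. Most differences were smaller. At the same adjusted p whatever the fold, 1131 genes were lower (15.2%) and 718 higher (9.68%), with a median log2 fold change of -0.57 among the former and 0.53 among the latter, beside 0.02 over all genes tested. In every fit that left out 1 library, 36 of the 42 reduced and 24 of the 65 increased genes passed the adjusted p. With replicate number as a block, 43 genes were reduced and 166 increased, and 1749 were lower and 1666 higher whatever the fold. Without the replicate 1 libraries, 32 were reduced and 64 increased, with 25 and 33 of the original calls kept, and 1860 were lower and 1586 higher whatever the fold. Leaving out control replicate 1, 2 or 3 lowered the increased count to 36, 23 or 35, and leaving out gld-4(RNAi) replicate 1 lowered it to 42. Without control replicates 1, 2 or 3 the count of genes lower at any fold was 702, 506 or 639 and of genes higher 336, 292 or 243. Without gld-4(RNAi) replicate 2 these counts were 781 and 450, and without replicate 3 of that group 571 and 286. Leaving out both libraries of replicate 2, or both of replicate 3, left no gene called, with 1824 and 1718 genes at an unadjusted p below 0.05.

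**Figure D1:**
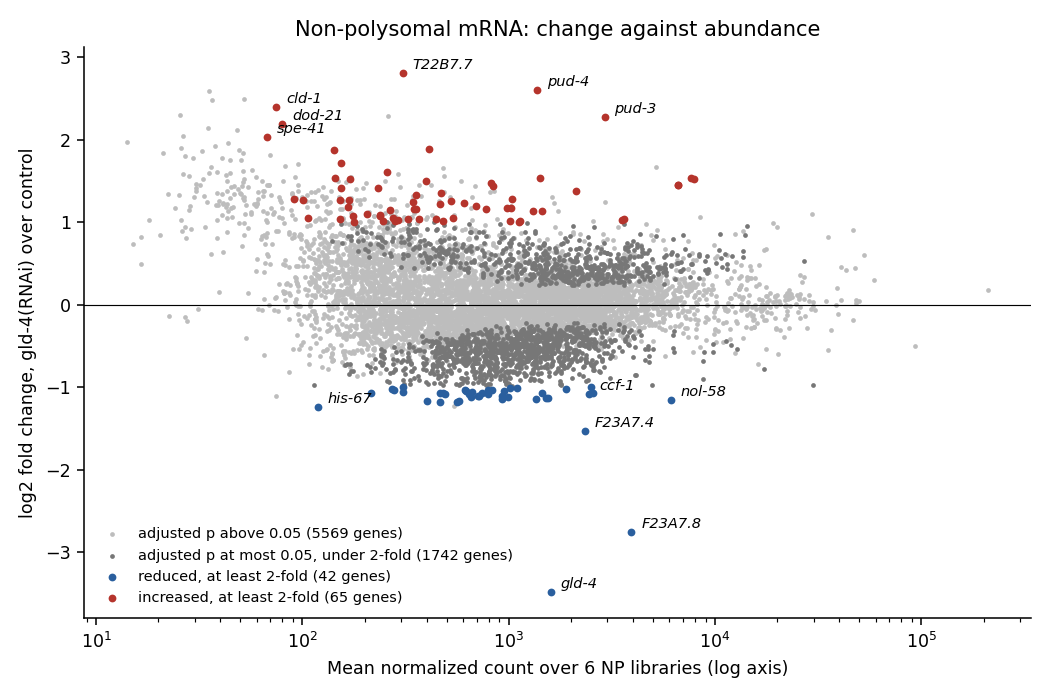
Each point is 1 of 7418 genes, with its mean normalized count over the 6 NP libraries on a log axis and its log2 fold change of gld-4(RNAi) over control. The 42 reduced genes cluster just past a 2-fold change except for gld-4 (-3.49), F23A7.8 (-2.76) and F23A7.4 (-1.54), while the 65 increased genes spread up to 2.81.

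After gld-4, the deepest reductions belonged to a pair of neighbouring short genes on the X chromosome, F23A7.8 and F23A7.4, which carry no functional annotation in the tables used here. F23A7.8 had 9166, 6537 and 4861 normalized counts in control and 1224, 940 and 873 in gld-4(RNAi), a 6.77-fold lower mean (log2 fold change -2.76 ± 0.26 SE, edgeR adjusted p = 0.0040). F23A7.4 had 4279, 3701 and 2480 against 1517, 1156 and 937 (-1.54 ± 0.26, edgeR adjusted p = 0.011). The groups did not overlap for either gene, and the log2 ratios of the 3 pairs were -2.90, -2.80 and -2.48 for F23A7.8. In input the same genes differed less, by -1.52 ± 0.15 for F23A7.8 and -0.48 ± 0.12 for F23A7.4. The differences of NP from input, -1.22 ± 0.30 and -1.04 ± 0.28, did not pass adjustment (edgeR unadjusted p = 0.0018 and 0.0037, adjusted p = 0.87 for both).

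The other large reductions were spread over genes of several kinds. nol-58, a core protein of the box C/D snoRNPs that methylate ribosomal RNA, fell from 9489, 8182 and 7562 to 4255, 3494 and 3584 normalized counts (-1.15 ± 0.12, edgeR adjusted p = 0.0044). cpsf-2, a subunit of the nuclear cleavage and polyadenylation factor, fell from 1660, 1995 and 1916 to 910, 799 and 811 (-1.15 ± 0.10, edgeR adjusted p = 0.0038). adsl-1, adenylosuccinate lyase of purine synthesis, fell from 1410, 1238 and 1186 to 593, 583 and 560 (-1.14 ± 0.09, edgeR adjusted p = 0.0038). In each of these genes the lowest control value was well above the highest gld-4(RNAi) value, and the adjusted threshold was passed in every fit that left out 1 library. cdc-48.3, of the CDC48 family of AAA ATPases, fell from 829, 761 and 736 to 365, 327 and 337 (-1.18 ± 0.10, edgeR adjusted p = 0.0038). M04B2.4 and Y4C6B.1, with no role known from the tables, and the F-box gene fbxc-32 changed by -1.17, -1.14 and -1.17. The histone genes his-68 (H2A) and his-67 (H4) changed by -1.19 and -1.25. Histone genes have near-identical copies, only uniquely aligned reads were counted, and histone mRNAs mostly lack poly(A) tails, so these values are uncertain. Of the genes in this paragraph, fbxc-32 and his-67 missed the adjusted threshold in 4 of 6 fits that left out 1 library, the rest in none.

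**Figure D2:**
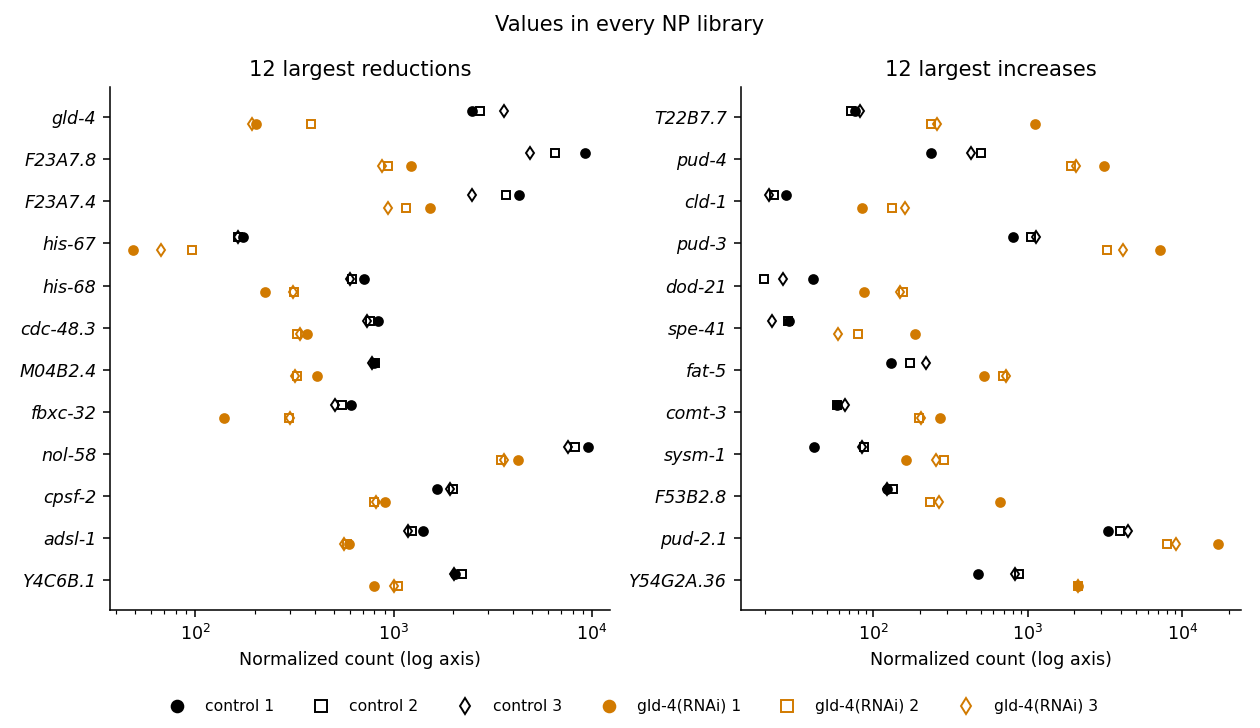
Normalized counts (log axis) in each of the 3 control and 3 gld-4(RNAi) NP libraries for the 12 genes with the largest reductions and the 12 with the largest increases. For the reduced genes control values sit to the right of gld-4(RNAi) values without overlap, and for T22B7.7, pud-3 and pud-2.1 the filled symbol of gld-4(RNAi) replicate 1 lies beyond the other two.

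The deadenylation machinery, which shortens the tails that poly(A) polymerases extend, held the gene with the smallest p of all 7418. ccf-1, the catalytic CAF1 subunit of the CCR4-NOT deadenylase, had 3415, 3269 and 3320 normalized counts in control and 1590, 1581 and 1567 in gld-4(RNAi) (-1.08 ± 0.06, edgeR adjusted p = 0.0034). The libraries of each group hardly differed, and the group means differed 2.11-fold. parn-2, a gene of the PARN family of poly(A)-specific ribonucleases, fell from 1012, 974 and 914 to 440, 431 and 471 (-1.11 ± 0.09, edgeR adjusted p = 0.0038). Of the 10 genes on the deadenylation list, 4 were lower (40%) and 1 higher (10%) at the adjusted p, against 15.2% and 9.68% of all genes. The other 5 did not pass, and the list median was -0.07. In each of the 6 fits that left out 1 library, 0 members were higher. The poly(A)-binding protein genes pab-1 and pab-2 did not pass (-0.07 ± 0.27 and 0.15 ± 0.24, edgeR adjusted p = 0.88 and 0.68).

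Genes of the mitochondrial ribosome, which translates the proteins encoded by mitochondrial DNA, were the list with the largest share of lower genes. Of 67 tested members of 70 named, 48 were lower (71.6%) and 0 higher at the edgeR adjusted p, against 15.2% and 9.68% of all genes, and 66 of 67 had a negative log2 fold change. Most of these changes were moderate, with a list median of -0.60 and a range of -1.03 to 0.17. The summed level of the list was 63710, 57500 and 54490 normalized counts in control and 42210, 38490 and 38960 in gld-4(RNAi), without overlap, and the median by pair was -0.70, -0.64 and -0.51. The count of lower members was 57 without the replicate 1 libraries, 29 without control replicate 2, 27 without gld-4(RNAi) replicate 3 (when 571 of all genes were lower) and 33 to 52 without any other single library. The 2 members past 2-fold were mrps-30 and mrps-18.C. mrps-30 fell from 1483, 1415 and 1476 to 685, 797 and 694 normalized counts (-1.01 ± 0.09, edgeR adjusted p = 0.0038), and mrps-18.C from 442, 355 and 317 to 168, 188 and 188 (-1.03 ± 0.17, edgeR adjusted p = 0.0097).

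Cytosolic ribosomal protein genes, unlike those of the mitochondrial ribosome, held 1 call. Of 75 tested, 1 was lower and 0 higher, the median was -0.01, and 39 had a negative and 36 a positive log2 fold change. The median was 0.11, -0.05 and -0.19 by pair, and -0.11 without the replicate 1 libraries, where 22 members were lower, and it was 0.26 without control replicate 1 and -0.39 without gld-4(RNAi) replicate 1, so that the position of this list depended on replicate 1. With the replicate block 8 were lower. The 1 member that passed was rpl-41.1, at 6667, 5574 and 5576 normalized counts in control and 3819, 3768 and 3448 in gld-4(RNAi) (-0.69 ± 0.10, edgeR adjusted p = 0.0069). rpl-34, the member with the next smallest p, had -0.30 ± 0.27 (edgeR adjusted p = 0.43, and 0.034 with the block).

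Translation factors and aminoacyl-tRNA synthetases held lower but no higher genes in the main edgeR fit. With DESeq2, 2 translation factors and 1 synthetase were higher, beside 23 and 17 lower. Of 41 initiation, elongation and release factors, 15 were lower (36.6%) and 0 higher, with a median of -0.34. With the replicate block 30 were lower and 1 higher, and without replicate 1 27 were lower. eif-3.D, a subunit of the eIF3 complex that brings mRNA to the small ribosomal subunit, fell from 3703, 3400 and 3308 to 1844, 1590 and 1522 normalized counts (-1.07 ± 0.09, edgeR adjusted p = 0.0038). eif-2Balpha, a subunit of the exchange factor that reloads eIF2 with GTP, fell from 662, 653 and 636 to 329, 284 and 313 (-1.07 ± 0.11, edgeR adjusted p = 0.0040). Both genes kept the adjusted threshold in every fit that left out 1 library. Of 33 aminoacyl-tRNA synthetases, which charge tRNAs with amino acids, 13 were lower (39.4%) and 0 higher, with a median of -0.27. The 1 past 2-fold was sars-2, for the mitochondrial seryl-tRNA synthetase, with 1083, 1086 and 1019 normalized counts in control and 480, 539 and 530 in gld-4(RNAi) (-1.04 ± 0.09, edgeR adjusted p = 0.0038). Without control replicate 1, 2 or 3, 10, 8 or 8 translation factors and 7, 6 or 5 synthetases were lower. Without gld-4(RNAi) replicate 1, 2 or 3 the counts were 18, 11 or 9 translation factors and 14, 6 or 4 synthetases.

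**Figure D3:**
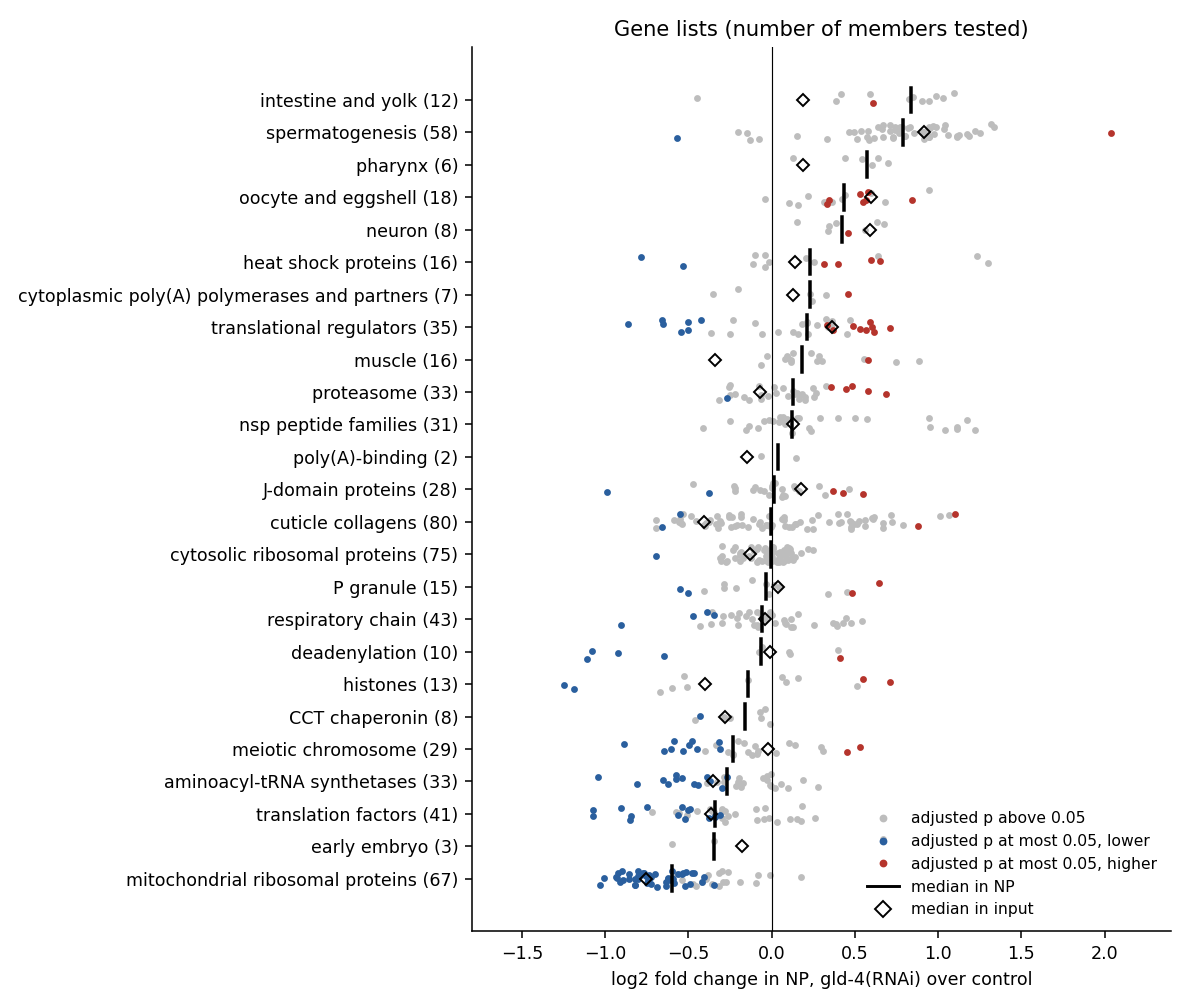
Each dot is 1 gene of a list and shows its log2 fold change in NP, coloured by the edgeR adjusted p. Bars mark the list's median in NP and open diamonds its median in input. Mitochondrial ribosomal proteins have the lowest median (-0.60), and translation factors (-0.34) and aminoacyl-tRNA synthetases (-0.27) also hold lower but no higher genes, while 7 of 18 oocyte and eggshell genes are higher.

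Other lists of protein production and folding were mixed, and their shares stand beside 15.2% lower and 9.68% higher of all genes. Of 43 genes of the nuclear-encoded respiratory chain, 4 were lower (9.3%) and 0 higher, with a median of -0.06. On this list 18 were lower without the replicate 1 libraries, and 8 lower and 5 higher with the block. Without gld-4(RNAi) replicate 1 alone 7 were lower, and without any other single library 1 was lower. The complex III subunit gene ucr-2.3 fell from 1365, 1182 and 1195 to 635, 687 and 672 normalized counts (-0.91 ± 0.09, edgeR adjusted p = 0.0040). cox-11, an assembly factor of cytochrome oxidase, changed by -0.47 ± 0.12 but missed the threshold in 5 of 6 fits that left out 1 library. The heat shock list had 2 of 16 lower (12.5%) and 4 higher (25%). It had 0 higher without control replicate 2 or 3 or gld-4(RNAi) replicate 3. It had 1 higher without control replicate 1 or gld-4(RNAi) replicate 2, and 6 higher without gld-4(RNAi) replicate 1. The lower count was 0 without gld-4(RNAi) replicate 2 or 3 and 1 without control replicate 1, 2 or 3. hsp-1, the constitutive cytosolic HSP70, fell from 24770, 20590 and 20200 to 13950, 12250 and 11890 (-0.78 ± 0.15, edgeR adjusted p = 0.014), whereas hsp-60, the mitochondrial chaperonin, rose from 3927, 3545 and 3416 to 5189, 4449 and 4716 (0.40 ± 0.09, edgeR adjusted p = 0.024). Groups did not overlap for either gene, but neither change reached 2-fold, and hsp-1 missed the threshold in 2 and hsp-60 in 3 of 6 fits that left out 1 library. Of 28 J-domain proteins, the co-chaperones of HSP70, 2 were lower (7.14%) and 3 higher (10.7%), with dnj-9 at -0.99 ± 0.09 and dnj-2 at 0.55 ± 0.10. The counts were 2 lower and 0 higher without gld-4(RNAi) replicate 3, 1 lower and 1 higher without control replicate 3, 3 lower and 2 higher without gld-4(RNAi) replicate 1, and 1 lower and 2 higher without any other single library. Of the 8 subunits of the CCT chaperonin, 1 passed (cct-4, -0.43 ± 0.08), which missed the threshold in 2 of 6 fits that left out 1 library, and cct-8 did not pass (-0.46 ± 0.16, edgeR adjusted p = 0.073) but did with the block (0.0025), with library size alone, with DESeq2 and without gld-4(RNAi) replicate 1 or both replicate 1 libraries. The proteasome had 5 of 33 higher (15.2%) and 1 lower (3.03%). It had 15 higher without replicate 1, 9 higher with the block, and 3 higher without control replicate 2 or 3 or gld-4(RNAi) replicate 2 or 3. rpn-11, the deubiquitinase of its lid, rose from 3454, 3210 and 3026 to 4921, 5020 and 4562 (0.58 ± 0.08, edgeR adjusted p = 0.0066), and the core subunit gene pbs-4 from 1693, 1669 and 1678 to 2275, 2932 and 2903 (0.69 ± 0.11, edgeR adjusted p = 0.0082).

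Germ-line genes moved in both directions. Of 18 oocyte and eggshell genes, 7 were higher (38.9%) and 0 lower, with a median of 0.43, and 16 were higher without replicate 1 and 14 with the block. chs-1, the chitin synthase of the eggshell, rose from 7341, 7485 and 7187 to 10370, 10470 and 10990 normalized counts (0.53 ± 0.09, edgeR adjusted p = 0.011). cpg-3, a chondroitin proteoglycan of the eggshell, rose from 5208, 4822 and 4917 to 6784, 10060 and 9934 (0.84 ± 0.16, edgeR adjusted p = 0.014), with replicate 1 the lowest of the knockdown values, and missed the threshold without control replicate 2 or 3. The summed level of the list was 243000, 245200 and 223400 in control and 315200, 330100 and 318200 in gld-4(RNAi), without overlap. Of 29 meiotic chromosome genes, 10 were lower (34.5%) and 2 higher, with a median of -0.23. htp-3, a HORMA-domain protein of the chromosome axis, fell from 2582, 2841 and 2482 to 1263, 1550 and 1460 (-0.89 ± 0.10, edgeR adjusted p = 0.0045), and zhp-3, a RING-finger protein of crossover sites, from 1116, 1284 and 1210 to 711, 857 and 809 (-0.60 ± 0.10, edgeR adjusted p = 0.0097). Without control replicate 2 or 3 or gld-4(RNAi) replicate 3, 2, 2 or 4 oocyte genes were higher, and 3, 6 or 5 meiotic genes were lower.

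RNA-binding regulators of germ-line translation also split. Of 35 tested, 7 were lower (20%) and 9 higher (25.7%), against 15.2% and 9.68% of all genes, with a median of 0.21. Of these regulators 5, 5, 3 or 4 were higher without control replicate 1, 2 or 3 or gld-4(RNAi) replicate 3. They include PUF proteins, which bind RNA through Pumilio repeats. Of 9 puf genes tested, counted after their values were seen, 2 were lower, 5 higher and 2 did not pass. Some of these genes are close copies of each other, and only uniquely aligned reads were counted. puf-12 fell from 2591, 2550 and 2502 to 1646, 1580 and 1637 normalized counts (-0.65 ± 0.06, edgeR adjusted p = 0.0038), and puf-10, which RefSeq lists as a pseudogene, rose from 3417, 3446 and 3037 to 5477, 5517 and 5211 (0.71 ± 0.08, edgeR adjusted p = 0.0044). Libraries of a group agreed closely in both genes, and both passed the adjusted threshold in every fit that left out 1 library. Of 15 P granule genes, 2 were lower and 2 higher (13.3% each), 9 had a negative log2 fold change, and the median was -0.03. With the block, and also without replicate 1, 6 were lower and 4 higher. The 2 with the smallest p were the higher ones, pgl-3 at 0.49 ± 0.07 and the helicase gene glh-4 at 0.65 ± 0.11.

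The increased genes were led by T22B7.7 and by genes of a family first named for proteins that rise in daf-2 mutants (pud). T22B7.7 had 77, 71 and 82 normalized counts in control and 1120, 236 and 259 in gld-4(RNAi). The groups did not overlap, but replicate 1 was far above the other knockdown libraries (2.81 ± 0.68, edgeR adjusted p = 0.031), and the call was lost in 3 of 6 fits that left out 1 library. pud-4 rose from 237, 497 and 428 to 3117, 1906 and 2065, 6.10-fold in the means (2.60 ± 0.33, edgeR adjusted p = 0.0066). pud-3 rose from 805, 1052 and 1139 to 7123, 3268 and 4108 (2.27 ± 0.32, edgeR adjusted p = 0.0077). Both kept the adjusted threshold in every fit that left out 1 library, and replicate 1 was the highest knockdown value of each. pud-2.1 had 3324, 3953 and 4465 against 17110, 7999 and 9094 (1.54 ± 0.31, edgeR adjusted p = 0.016, and 0.052 with the replicate block). pud-2.1 has a near-identical copy, pud-2.2, and only uniquely aligned reads were counted, so its own level is uncertain.

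fat-5, the desaturase that acts on palmitic acid, rose from 130, 172 and 219 to 518, 695 and 721 normalized counts, 3.71-fold in the means (1.89 ± 0.23, edgeR adjusted p = 0.0050). Unlike T22B7.7, its replicate 1 was the lowest value in both groups and the pairs gave 1.99, 2.01 and 1.72. comt-3, of the catechol-O-methyltransferase family, rose from 58, 59 and 66 to 269, 198 and 203 (1.87 ± 0.24, edgeR adjusted p = 0.0053). Y54G2A.36, with no role known from the tables, rose from 476, 881 and 826 to 2115, 2125 and 2120 (1.54 ± 0.22, edgeR adjusted p = 0.0075), values that hardly varied among the knockdown libraries. The neighbours cld-1 and dod-21 had low levels, at 27, 23 and 21 against 84, 132 and 161 for cld-1 and at 41, 20 and 26 against 87, 156 and 150 for dod-21 (2.39 ± 0.42 and 2.19 ± 0.46, edgeR adjusted p = 0.011 and 0.018). sysm-1 and F53B2.8 changed by 1.72 ± 0.37 and 1.60 ± 0.41. Of these, cld-1 missed the threshold in 1, F53B2.8 in 3, and dod-21 and sysm-1 in 4 of 6 fits that left out 1 library.

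Calls on the lists of sperm and somatic genes stand beside 15.2% lower and 9.68% higher of all genes. The medians of most of these lists depended on the replicate 1 libraries. Of 58 spermatogenesis genes tested of 94 named, 1 was higher and 1 lower (1.72% each). The median was 0.79, with pair medians of 0.45 and 0.16 in replicates 2 and 3, and 28 were higher with the replicate block and 5 without replicate 1. Their summed level was 19100, 7632 and 8040 normalized counts in control and 34950, 8696 and 8273 in gld-4(RNAi), so that the groups overlapped and both replicate 1 libraries were high. The list's median was -0.65 without gld-4(RNAi) replicate 1 and 1.81 without control replicate 1. The 1 member past 2-fold was spe-41, a calcium channel of sperm that is needed for fertilization, with 28, 28 and 22 against 186, 80 and 59 (2.04 ± 0.57, edgeR adjusted p = 0.041), and it missed the threshold in 5 of 6 fits that left out 1 library. Its input levels were 18, 13 and 11 in control and 60, 34 and 39 in gld-4(RNAi). It thus met the filter only through gld-2(RNAi) libraries. Of 31 nsp peptide family genes, which include sperm-enriched members with near-identical copies, 0 passed the edgeR test, 0 had an unadjusted p below 0.05, 0 passed with DESeq2, and 4 were higher with the replicate block. nspd-6 and nspd-7 had the smallest p, at 1.17 ± 0.84 and 1.11 ± 0.82.

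The intestine and yolk list had 1 of 12 higher (8.33%, near the 9.68% of all genes) and a median of 0.84. Its summed levels were 173100, 103300 and 113200 in control and 374700, 170300 and 167900 in gld-4(RNAi), which overlap. With the block 10 were higher and 1 lower, and with DESeq2 7 were higher. Without the replicate 1 libraries 8 were higher and 1 lower, with a median of 0.62. The list median was 1.08, 0.67 and 0.58 by pair and 0.45 to 1.17 in the fits that left out 1 library. cpr-6, a cathepsin B protease, rose from 2602, 2692 and 2742 to 4123, 3857 and 4277 normalized counts (0.61 ± 0.07, edgeR adjusted p = 0.0046). The yolk protein gene vit-5 had 24240, 15220 and 16670 against 66160, 27200 and 26770 (1.10 ± 0.41, edgeR adjusted p = 0.095, and 0.0022 with the block). Of 16 muscle genes 1 was higher (6.25%), unc-60, the actin depolymerizing factor (0.58 ± 0.12), with unc-89 next at 0.74 ± 0.29. unc-60 missed the threshold without control replicate 2 or 3 or gld-4(RNAi) replicate 2 or 3. The muscle median was 0.18, with 0.41 without control replicate 1 and -0.27 without gld-4(RNAi) replicate 1, and without both 3 were lower and 4 higher. Of 6 pharynx genes 0 passed with edgeR, at an unadjusted p below 0.05 or with DESeq2, and 1 passed with the block. phat-7 and phat-8 had the smallest p, at 0.70 ± 0.38 and 0.54 ± 0.26. Of 8 neuron genes 1 was higher (12.5%), snb-1, the synaptobrevin of synaptic vesicles, at 3971, 3994 and 3907 against 5171, 5531 and 5587 (0.46 ± 0.07, edgeR adjusted p = 0.0077), and flp-28 had 0.56 ± 0.38. Of 80 cuticle collagens 2 were higher and 2 lower (2.5% each), with col-150 past 2-fold (1.10 ± 0.26, edgeR adjusted p = 0.025) and 16 higher and 8 lower with the block. Without the replicate 1 libraries 15 were higher and 23 lower, the collagen median moved from 0.73 without control replicate 1 to -0.49 without gld-4(RNAi) replicate 1, and col-150 missed the threshold in 4 of 6 fits that left out 1 library. The early embryo list, which in a young adult reads the first embryos held in the uterus, had summed levels of 2290, 2663 and 3290 in control and 1016, 2794 and 3490 in gld-4(RNAi), with 3 of 43 members past the expression filter. Of these, 0 passed with edgeR, at an unadjusted p below 0.05 or with DESeq2, and 1 was higher with the block and 1 lower without replicate 1. vet-2 and sdz-24, the members with the smallest p, had -0.60 ± 0.41 and 0.67 ± 0.60. The part that tissue makeup played in the changes above was not tested.

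**Figure D4:**
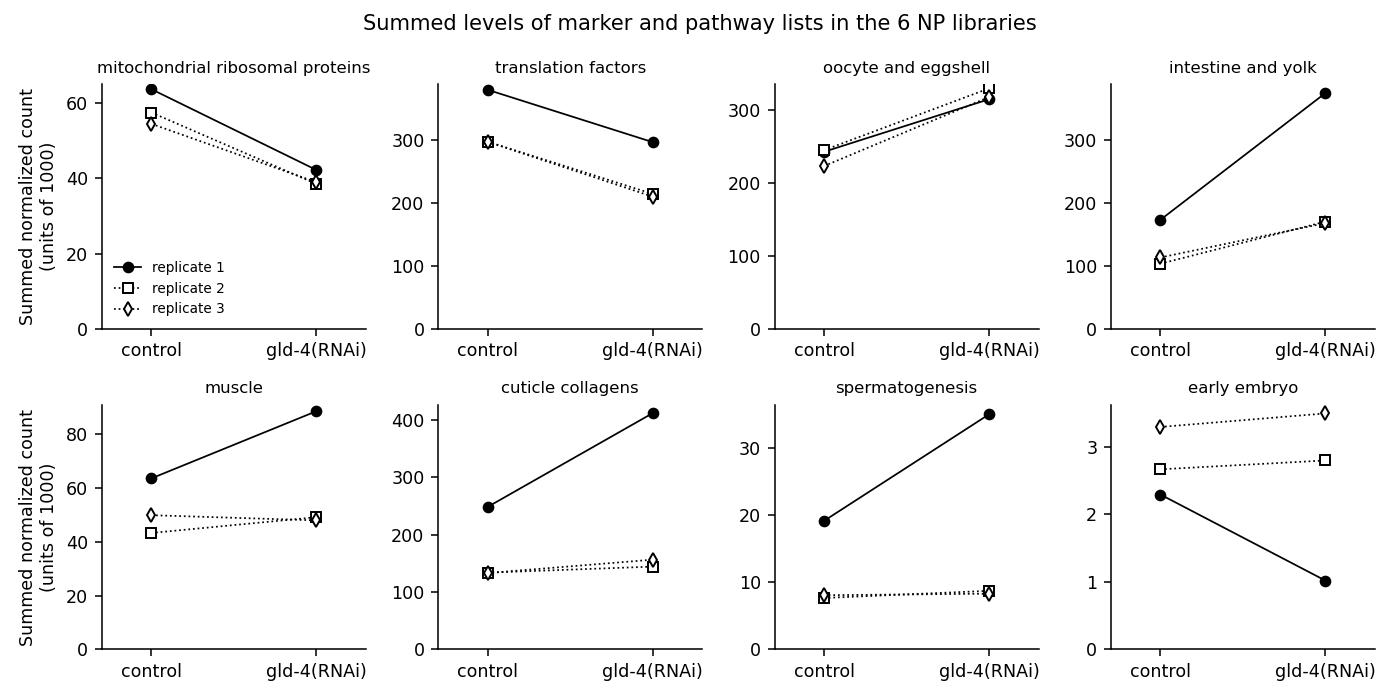
Summed normalized counts (in units of 1000, axes from 0) of 8 gene lists in the 3 control and 3 gld-4(RNAi) NP libraries, with lines joining libraries of the same replicate number. Mitochondrial ribosomal proteins and translation factors are lower, and oocyte and eggshell genes higher, in each pair, while the intestine, muscle, collagen and spermatogenesis sums are high in both replicate 1 libraries and the early embryo sum is lowest in gld-4(RNAi) replicate 1.

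The differences in NP were set beside those in input and in P, which came from the same extracts but are separate libraries. Of the 42 genes reduced in NP all 42 were lower in input, 32 of them at the edgeR adjusted p, with a median of -0.99 in input and -1.08 in NP. Of the 65 increased, 64 were higher in input, 18 at the adjusted p, with a median of 0.82 in input and 1.23 in NP. In P all 42 were lower (13 at the adjusted p, median -0.67) and all 65 higher (26 at the adjusted p, median 1.15). Over all 7418 genes tested, 559 were lower and 525 higher at the adjusted p in input, and 199 and 83 in P. Since the genes were chosen by their NP values, smaller medians elsewhere are in part fixed by the choice. How many of all tested genes had the same sign in NP as in input or P was not counted. The counts of shared direction therefore have no background, and shared extracts make them no separate evidence. The test of the difference between NP and input called 0 of 7418 genes (0% called), with 396 at an unadjusted p below 0.05, and 0 with the replicate block or with any replicate left out. DESeq2 called hacd-1 and dhs-28, at 1.16 and 1.33 higher in NP than in input.

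The genes with the smallest p for NP against input were hacd-1, inos-1 and Y39G8B.1. hacd-1, of the 3-hydroxyacyl-CoA dehydrogenase family, had 375, 398 and 355 normalized counts in control NP and 556, 550 and 645 in gld-4(RNAi) NP, whereas input had 531, 466 and 439 against 277, 313 and 423. The 2 fractions moved in opposite directions (0.64 ± 0.12 in NP and -0.50 ± 0.20 in input, difference 1.16 ± 0.23, edgeR adjusted p = 0.87). inos-1, myo-inositol-1-phosphate synthase, had 2057, 2337 and 2202 against 2399, 2241 and 2098 in NP, with 0.03 ± 0.08 there, and 0.58 ± 0.09 in input (difference -0.53 ± 0.11, edgeR adjusted p = 0.87). Y39G8B.1 had 0.56 ± 0.13 in NP and -0.24 ± 0.13 in input (difference 0.82 ± 0.16, edgeR adjusted p = 0.87). None of these differences passed.

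**Figure D5:**
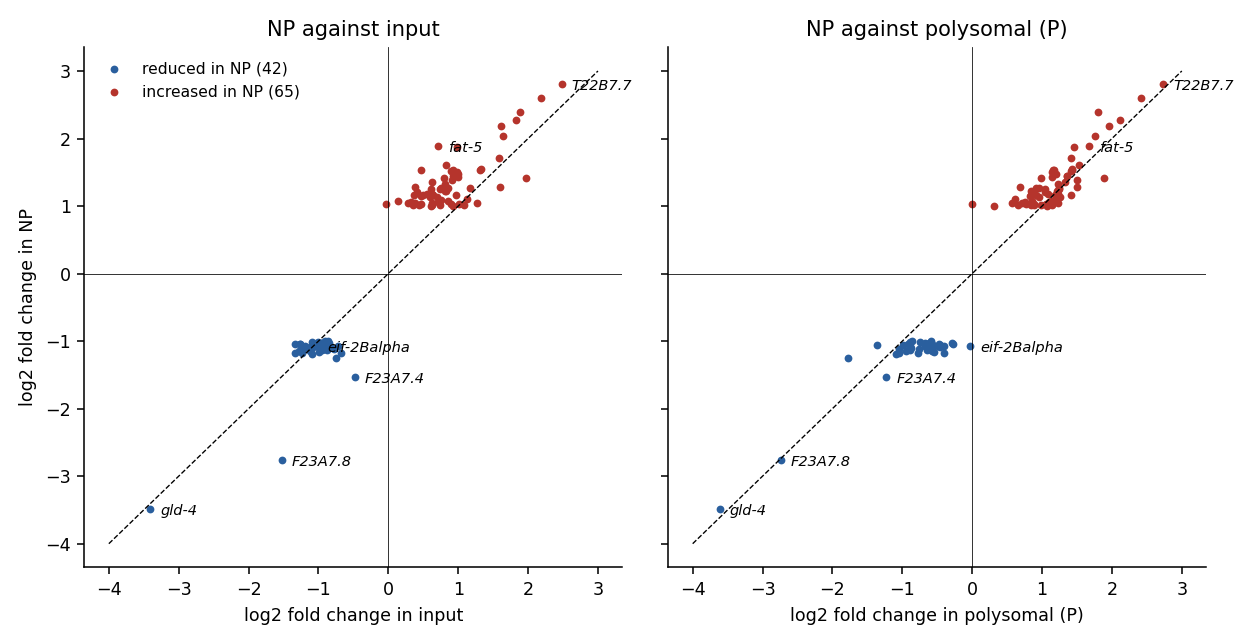
The log2 fold change in NP of the 42 reduced and 65 increased genes against that in input (left) and in P (right), with a dashed line where both are equal. Reduced genes lie near the line for input and mostly above -1 on the axis of P, eif-2Balpha has no difference in P (-0.03), and F23A7.8 lies near the line in P (-2.74) and off it in input (-1.52).

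The test of NP against P called 2 genes, 1 in each direction (0.027% of genes tested), with 845 at an unadjusted p below 0.05, and 2 in one direction and 7 in the other with the replicate block. rpn-11 had 6226, 6049 and 6542 normalized counts in control P and 4918, 3605 and 3930 in gld-4(RNAi) P, against the rise in NP given above (difference 1.18 ± 0.14, edgeR adjusted p = 0.029). eif-2Balpha had 647, 562 and 563 against 643, 533 and 561 in P, where the groups overlapped, against the fall in NP (difference -1.05 ± 0.14, edgeR adjusted p = 0.046). Neither call held when control replicate 1, 2 or 3 or gld-4(RNAi) replicate 2 or 3 was left out, and without gld-4(RNAi) replicate 1 the counts were 12 higher and 2 lower in NP than in P. By list, the proteasome had a median of 0.13 in NP and -0.41 in P, and 25 of its 33 genes reached an unadjusted p below 0.05 for the difference, 1 at the adjusted p. Mitochondrial ribosomal proteins had -0.60 in NP, -0.76 in input and -0.35 in P, and meiotic chromosome genes -0.23, -0.02 and 0.16, with 18 of 67 and 16 of 29 genes at an unadjusted p below 0.05 for NP against P and none at the adjusted p.

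gld-2(RNAi) was compared with the same 3 control NP libraries, so the 2 comparisons share controls and their values are only placed side by side. gld-4 itself was at -1.29 in gld-2(RNAi) NP, and ccf-1 at -1.47. Of the genes changed most in gld-4(RNAi) after gld-4, F23A7.8 was at -0.25, F23A7.4 at -0.57 and his-67 at -0.26 there, and T22B7.7 was at 4.61, pud-4 at 1.81 and cld-1 at 1.17. The list medians in gld-2(RNAi) NP were 0.15 for mitochondrial ribosomal proteins, 0.26 for translation factors, 0.70 for aminoacyl-tRNA synthetases, -1.03 for oocyte and eggshell genes and 3.37 for spermatogenesis genes, beside -0.60, -0.34, -0.27, 0.43 and 0.79 in gld-4(RNAi) NP. The spermatogenesis medians cover the 58 of 94 genes that met the filter, which averages in gld-2(RNAi) input. Members high there could enter through it, so 3.37 is in part fixed by the filter.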

How the data were processed

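Per the labels and the study's methods, the authors used TopHat2 and the WS220 genome, and deposited raw counts of uniquely aligned reads per gene made by featureCounts (Subread 1.4.0). The sources describe the libraries both as directional and as not strand-specific, so overlapping genes cannot be told apart with certainty. The authors' 6 comparison tables hold fold changes and p-values from DESeq and 72 per-sample columns, and were not used here.

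Genes averaging 100 or more normalized counts (TMM) across the 9 libraries of input (7418 of 45461 features) were tested on the 6 NP libraries with edgeR 4.0.16 in R 4.3.3 by the robust quasi-likelihood test. A gene was called at an adjusted p up to 0.05 with a change of 2-fold or more. SE is the log2 fold change divided by the square root of F. NP was tested against input, and against P, as an interaction over 12 libraries. The main interaction fits ignored that libraries of different fractions came from the same extract. In the interactions the replicate block was 1 block per RNAi and replicate number, and in the NP comparison 1 per replicate number. Alternatives were library size scaling, DESeq2 1.42.0, other filters and thresholds, a replicate block and leaving libraries out. The numbers of the labels were taken to pair NP libraries. Same-numbered NP libraries deviated together (correlations of deviations from group means 0.817, 0.748 and 0.648). Libraries numbered 2 and 3 also deviated together (0.716 and 0.584), and those numbered 1 opposite to both (-0.787 to -0.645). These values set replicate 1 apart but cannot tell whether replicates 2 and 3 pair by number. Replicates varied more than counting noise (chi-square per degree of freedom 9.70 to 130), so none was a repeat deposit.

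Named genes were gld-4, gld-2, the gene next to gld-4, the 12 largest changes per direction moving the same way in every pair, up to 4 called members of a list or the 2 with the smallest p, and genes called by, or with the 3 smallest p for, each interaction. The result for 1 further gene of this rule is not reported here. Members and lists were chosen with earlier results of these data known. Names came from RefSeq (7361 of 7418 tested genes matched), whose assembly is later than WS220, so no positions are given. The fits were tested on simulated data.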

Additional observations from a re-analysis of the deposited data

Results flagged for a closer look

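Of the gld-4(RNAi) effects tested between fractions, those of 2 genes differed past both thresholds. The log2 fold change of rpn-11 was 1.18 higher in NP than in P, with 0.58 in NP and -0.60 in P. That of eif-2Balpha was 1.05 lower, a difference of -1.05, with -1.07 in NP and -0.03 in P.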

How the results depend on the processing

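The 42 reduced and 65 increased genes of NP were 117 and 89 with a mean of at least 10 in NP and 116 and 86 with every gene of at least 1 count, where reduced genes made up 57.4% of calls against 39.3%, and 46 and 84 with a mean of at least 100 in NP. The 6063 genes that a mean of at least 10, taken over both groups, added held 7 of its reduced and 52 of its increased calls. The same 7418 genes thus gave more reduced and fewer increased calls in that fit than in the main comparison. They were 40 and 116 with DESeq2 (25.6% reduced), 49 and 51 with library size alone (49.0%), 43 and 166 with the replicate block (20.6%), 42 and 76 with 9 NP libraries in the fit, and 1131 and 718 at an adjusted p whatever the fold. Leaving out 1 library or 1 replicate number gave 0 to 50 reduced and 0 to 81 increased. gld-4 was -3.97 to -3.13 over its alternatives and missed the adjusted threshold without either both replicate 2 libraries (-3.97, adjusted p = 0.067) or both replicate 3 libraries (-3.13, adjusted p = 0.14), as every other gene did. For NP against input DESeq2 called 2 higher, and every other alternative 0. For NP against P the 1 lower and 1 higher were 0 and 0 with library size alone or every gene, 1 and 7 with DESeq2, 2 and 7 with the block, 1 and 2 at any fold, and 0 to 2 and 0 to 12 with a replicate left out. Among the other named genes 645 of 852 values under alternatives stayed on their side of the adjusted threshold, 182 lost it and 25 gained it, and no gene past the threshold changed sign. Of 275 list medians 33 moved by more than 1 SD of the pair medians, mostly without gld-4(RNAi) replicate 1. The replicate block changed the call of pud-2.1 (lost) and of rpl-34, cct-8, sdz-24, unc-89, phat-7, vit-5 and nspd-7 (gained), and of no other named gene. The cause of these shifts was not tested. Depth limits genes near the expression filter.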

Other observations

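Some genes past 2-fold were on no list. Those in this paragraph were picked after their values were seen, other members of their families were not counted, and no group was tested. Increased in NP were acox-1.2, a peroxisomal acyl-CoA oxidase (log2 fold change 1.53), the acyl-CoA synthetase genes acs-22 (1.25) and acs-1 (1.01), the fatty acid and retinol binding protein gene far-3 (1.52) and dsc-4, the microsomal triglyceride transfer protein that loads yolk lipoproteins (1.04). Also increased were the lysozyme lys-2 (1.17), the C-type lectins clec-209 (1.44) and clec-85 (1.23) and the infection response gene irg-5 (1.42). Of enzymes of purine synthesis, adsl-1 was reduced (-1.14), and atic-1 (1.08) and pfas-1 (1.05) were increased. Also reduced were rpap-2, an RNA polymerase II associated protein (-1.11), mdt-4, a Mediator subunit (-1.10), and cdc-73, of the PAF1 complex (-1.08). All of these passed edgeR's test at an adjusted p of at most 0.05.

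Below the expression filter, 6063 further genes with a mean of at least 10 in NP were tested by edgeR together with the others, and 7 were reduced and 52 increased. That mean covered both groups, so a gene could enter only through the group where it was high. The 2 counts and the tests below are therefore in part fixed by the filter. The increase with the smallest p was fog-3, which commits germ cells to the sperm fate. Its control values were all below 10, so fog-3 entered the test only through the gld-4(RNAi) libraries. Its raw counts were 7, 10 and 4 in control NP and 117, 126 and 149 in gld-4(RNAi) NP, in normalized counts 7.67, 8.49 and 3.86 against 149, 126 and 137 (4.21 ± 0.36 SE, edgeR adjusted p = 0.0054). Input had raw counts of 4, 4 and 3 against 119, 146 and 136, and P 6, 5 and 9 against 66, 102 and 102. In gld-2(RNAi) NP the raw counts were 45, 34 and 25. In input, NP and P alike, every gld-4(RNAi) library thus lay above every control library. These libraries came from the same extracts, so they are not 9 replicates per group. Also increased were snpc-1.3, a subunit of the snRNA activating complex used for small RNA genes (1.56 ± 0.23), the P-glycoprotein gene pgp-1 (raw counts 55, 55 and 58 against 132, 147 and 168) and the metallothionein gene mtl-1 (2.29 ± 0.39), and mrpl-24, of the mitochondrial ribosome, was reduced (-1.23 ± 0.22).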
